A study of Rattus norvegicus with 12 samples.

Results

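Brains of rats that carried a vector for vascular endothelial growth factor C (VEGFC) were compared with brains of rats that carried a vector for green fluorescent protein (GFP), to show what VEGFC added to the effect of a vector. These are 6 of the 12 libraries of the series, 3 with AAV-VEGFC and 3 with AAV-GFP, chosen by their sample titles alone. All were from middle brain of male Sprague-Dawley rats at postnatal day 60. Both groups had undergone bile duct ligation (BDL), which blocks bile flow, leads to cirrhosis and models hepatic encephalopathy, with 4 weeks between ligation and sampling. Both received an adeno-associated virus (AAV) in the cisterna magna, the fluid space behind the cerebellum, in 20 µl and at 1.5e+11 genome copies per rat, where the exponent was taken to be a superscript lost in the label. The groups thus differ by the cargo of the vector, and neither is free of ligation or of virus. The promoter of the vectors, the cells they entered and the species of the Vegfc sequence are not given in the labels. Sham-operated rats and ligated rats without a vector (3 libraries each) are used to place the levels, and in an alternative fit of all 12 libraries. The series describes 3 rats per group, but no label ties a library to an animal, so p-values measure the spread between these samples.

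VEGFC is a secreted ligand that, once its ends are cut off by proteases, binds the receptor tyrosine kinases VEGFR3 (gene Flt4) and VEGFR2 (Kdr). It drives the growth of lymphatic vessels, which in the head lie in the meninges and not in the brain tissue, and VEGFR2 signalling in blood vessel endothelium switches on early-response genes within a short time. Early-response genes such as Fos need no new protein synthesis and are also switched on by neuronal firing and by handling of tissue. Major histocompatibility complex (MHC) class II molecules show peptides to T cells, and in brain are made mainly by activated microglia and by macrophages at the borders.

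The 6 libraries held 40296297 to 51669067 counted reads. AAV-VEGFC 1 and AAV-GFP 1 stood apart in different ways, and AAV-VEGFC 3 did in others. AAV-VEGFC 1 correlated with the other vector libraries at a mean of 0.982 (on log2 CPM, counts scaled to library size), against 0.988 to 0.992 for the rest, and carried the first principal component, 46.4% of the variance. Its summed level of 82 ribosomal protein genes was 30050 CPM, against 13130 to 16050 CPM in the other vector libraries. AAV-GFP 1 had a summed MHC class II level of 376.3 CPM, against 61.12 and 55.48 CPM in AAV-GFP 2 and 3. Its mean correlation (0.9882) was near that of AAV-VEGFC 3 (0.9881). AAV-VEGFC 3 was the only vector library with the pituitary hormones Gh1 and Prl above 1 CPM (27.84 and 25.69 CPM). In several genes of brain regions AAV-GFP 1 and AAV-VEGFC 1 lay with the opposite group. C1ql2, a gene of dentate granule cells of the hippocampus, stood at 2.54, 30.9 and 19.8 CPM in AAV-GFP 1 to 3 and at 36.4, 4.73 and 4.04 CPM in AAV-VEGFC 1 to 3. Prox1, the master regulator of lymphatic identity and in brain also a gene of dentate granule cells, showed the same split, with 7.47, 23.5 and 19.1 CPM against 19.4, 8.18 and 9.56 CPM. The neuron markers were those of forebrain, as Slc17a7, which loads glutamate into vesicles in cortical neurons, lay at 1249 to 2029 CPM and Th, the enzyme that limits dopamine synthesis, at 1.02 to 1.54 CPM. Results below are therefore read with the libraries AAV-GFP 1 and AAV-VEGFC 1 named, and in bulk tissue fewer cells of a type and less RNA per cell cannot be told apart.

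No gene passed the test. Of 12543 genes, 0 (0%) changed at an adjusted p under 0.05 when edgeR's quasi-likelihood test was fitted to the 6 libraries (Benjamini-Hochberg adjustment), and 203 (1.62%) had an unadjusted p under 0.05, 88 higher (0.702%) and 115 lower (0.917%) with AAV-VEGFC. DESeq2 called 6 of 12528 genes (0.0479%), of which Apold1 and Sik1 were higher and Slc39a12, RT1-Ba, RT1-Bb and Pomp lower. limma voom with quality weights called 3 of 12543 (0.0239%), namely Slc39a12, Apold1 and Sik1. These same 3 genes had the smallest adjusted p in the edgeR fit, 0.626 for Apold1 and Sik1 and 0.748 for Slc39a12. Levels are therefore described below by whether the 3 AAV-VEGFC values all lay above or all below the 3 AAV-GFP values. Over all genes tested this held for 413 in the higher direction (3.29%) and for 343 in the lower (2.73%), together 756 (6.03%), and counts in gene lists are set beside those shares.

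**Figure D1:**
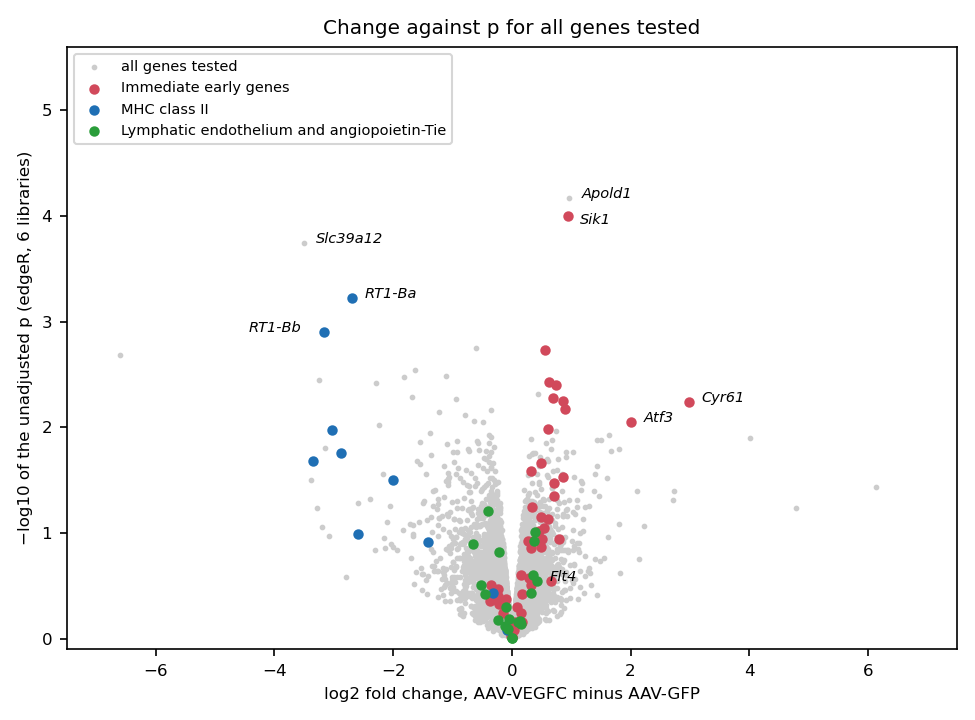
Each point is 1 of the 12543 genes tested, with its log2 fold change (AAV-VEGFC minus AAV-GFP) on the x axis and −log10 of its unadjusted edgeR p on the y axis; early-response, MHC class II and lymphatic genes are coloured. Apold1, Sik1 and Slc39a12 have the smallest p, and none reaches an adjusted p under 0.05.

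The largest difference among the genes DESeq2 called was in Slc39a12, which codes for the zinc importer ZIP12 of the cell membrane. It stood at 16.7, 15.2 and 15.7 CPM in the AAV-GFP libraries and at 2.65, 0.998 and 0.615 CPM in the AAV-VEGFC libraries. The sham libraries held 1.66, 1.3 and 1.82 CPM and the ligated libraries without a vector 1.95, 1.76 and 1.61 CPM. AAV-GFP was therefore the group at a different level, and the AAV-VEGFC values lay on both sides of the narrow range of rats with no vector. The log2 fold change was -3.51 ± 0.49 (SE), with adjusted p = 0.748 by edgeR, 3.04e-10 by DESeq2 and 0.00404 by limma voom. With 1 library left out it ranged from -4.28 to -3.13. Slc39a12 passed the edgeR test in a fit of all 12 libraries (adjusted p = 0.0385) and without AAV-VEGFC 1 (adjusted p = 0.0352). Of 26 tested genes of zinc and manganese handling (transporters, metallothioneins and the factor Mtf1), only Slc39a9 also had groups that did not overlap, with 28.1, 27.9 and 24.8 CPM against 29.4, 29 and 31 CPM (0.14 ± 0.10). That is 1 of 26 in each direction (3.85%, against 3.29% higher and 2.73% lower over all genes). Slc30a3, which fills synaptic vesicles with zinc, overlapped between the groups (-0.05 ± 0.10), as did Mt3, a zinc-binding metallothionein of brain (0.16 ± 0.31).

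Apold1, an early-response gene of endothelial cells, was the gene with the smallest p. It measured 51.6, 62.6 and 62.4 CPM with AAV-GFP and 109, 114 and 123 CPM with AAV-VEGFC (0.96 ± 0.12). Both vector groups lay above the sham libraries (13.3, 14.2 and 19.1 CPM) and the ligated ones (4.64, 12.6 and 13.4 CPM), so the AAV-VEGFC level was the highest of the 4 groups. Adjusted p was 0.626 by edgeR, 3.46e-09 by DESeq2 and 0.0102 by limma voom. Sik1, a salt-inducible kinase that is switched on by CREB and restrains the CREB co-activators, measured 8.24, 7.54 and 7.5 CPM with AAV-GFP and 15.1, 15.9 and 14.1 CPM with AAV-VEGFC (0.95 ± 0.12). Its AAV-VEGFC values also lay above the sham libraries (9.75, 11.8 and 11.5 CPM), whereas its AAV-GFP values lay below them. Adjusted p was 0.626 by edgeR, 1.11e-08 by DESeq2 and 0.0263 by limma voom. With 1 library left out, the fold change of Apold1 ranged from 0.89 to 1.01 and that of Sik1 lay within the same range.

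**Figure D2:**
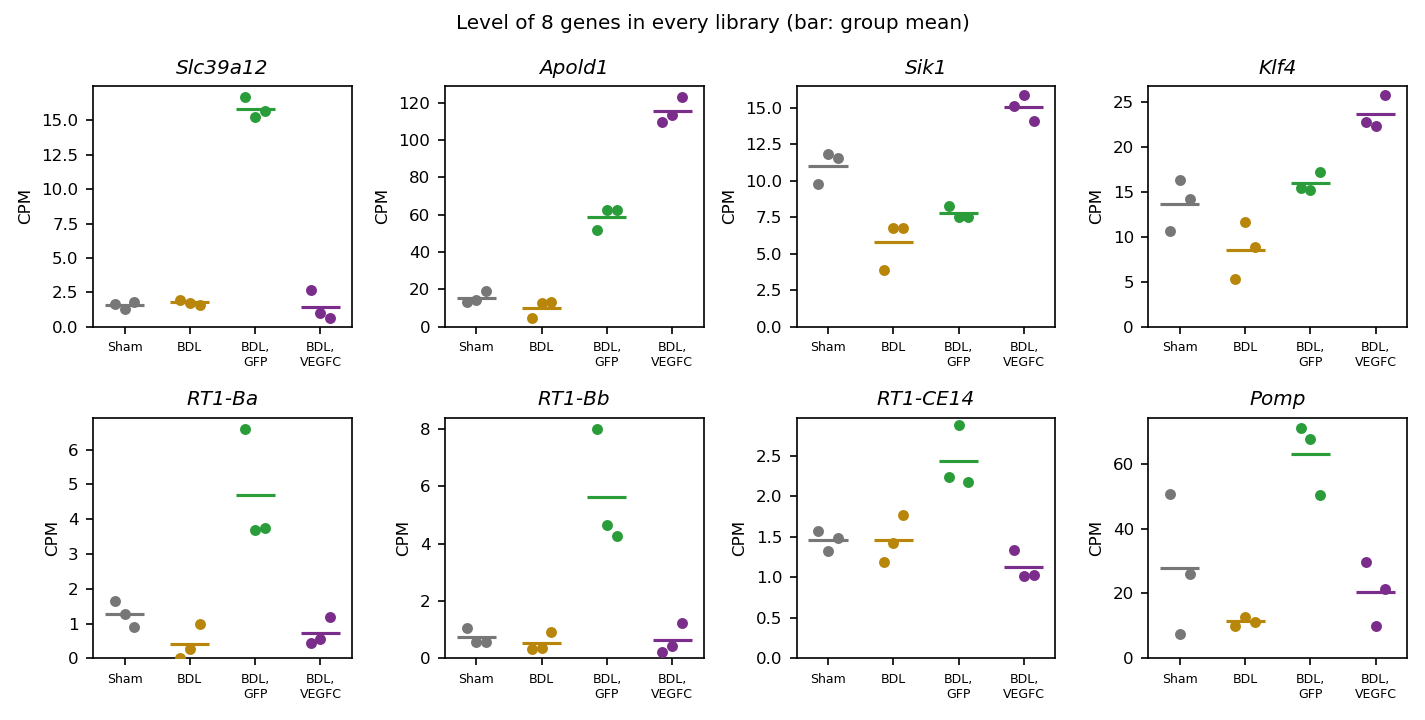
CPM (y axis, from 0) of 8 genes in each of the 12 libraries, with 3 points per group (sham, BDL, BDL with AAV-GFP, BDL with AAV-VEGFC) and a bar at the group mean. In Slc39a12, RT1-Ba, RT1-Bb and RT1-CE14 the AAV-GFP group lies above the other 3 groups, whereas in Apold1, Sik1 and Klf4 the AAV-VEGFC group does; the sham values of Pomp spread from 7.44 to 50.6 CPM.

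Early-response genes had the largest share of higher members among the lists with at least 10 tested genes. Of 51 listed genes 49 were tested and 0 passed the edgeR test; 13 (26.5%, against 3.29% of all genes) had every AAV-VEGFC value above every AAV-GFP value and 0 the reverse (against 2.73%). The fold change was above 0 in 38 of 49, with a median of 0.33 on the log2 scale against 0.01 over all genes. The list was drawn up with earlier results on these data known, so its count is a description and no independent support of its direction. The 13 genes were the AP-1 subunits Fos and Junb, the stress factor Atf3, the small Maf protein Maff, the Krüppel-like factors Klf2 and Klf4, the nuclear receptor Nr4a1, and Arc, Ier2, Btg2, Sertad1, Sik1 and Cyr61.

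Promoter sequences are shown for 3 of these genes because they hold the cAMP response element, the site bound by CREB, or its core. The sequences are from RefSeq on the GRCr8 build, run 5′ to 3′ along the gene, end at the base before the annotated start, and have the element (TGACGTCA) or its core (TGACG, on either strand) in capitals.
Ier2, chr19:40399273-40399372, plus strand: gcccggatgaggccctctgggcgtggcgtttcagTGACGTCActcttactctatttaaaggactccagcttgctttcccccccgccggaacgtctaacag
Btg2, chr13:48087691-48087910, minus strand: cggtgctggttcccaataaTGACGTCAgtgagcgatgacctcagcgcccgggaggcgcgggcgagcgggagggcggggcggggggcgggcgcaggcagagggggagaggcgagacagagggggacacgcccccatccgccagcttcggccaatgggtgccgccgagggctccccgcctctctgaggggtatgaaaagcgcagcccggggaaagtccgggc
Sik1, chr20:9958647-9958866, minus strand: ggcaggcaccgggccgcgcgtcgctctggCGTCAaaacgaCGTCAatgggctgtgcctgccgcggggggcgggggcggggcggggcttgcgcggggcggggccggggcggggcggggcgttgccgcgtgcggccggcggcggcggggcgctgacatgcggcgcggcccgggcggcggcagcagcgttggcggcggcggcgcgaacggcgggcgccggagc

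The whole element lies in Ier2 and Btg2, and Sik1 holds 2 copies of the core on the opposite strand. In the 250 bases upstream, TGACGTCA was found in 3 of the 8 genes of the 13 that matched a promoter entry (37.5%), the other being Maff, and in 6 of 36 matched genes of the whole list (16.7%). Of all 33469 promoters in the table, 531 (1.59%) hold it. The core TGACG, which the whole element contains, was found in 6 of the 8 (75%), in 19 of the 36 (52.8%) and in 18.2% of all promoters. The CArG box (CC, 6 bases of A or T, GG), the site of serum response factor, was found in 4 of the 36 (11.1%, against 1.5% of all promoters) and in 0 of the 8. Fos, Arc, Klf2, Atf3 and Cyr61 had no promoter entry, so the counts of the 8 do not cover them. Which elements are more common in the 13 separate genes therefore cannot be told from these counts. The AP-1 site TGANTCA was found in 0 of the 36 and in 6.34% of all promoters. These are matches of letters and not measured binding.

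Fos, the prototype of the class, measured 12.7, 17.6 and 12.9 CPM with AAV-GFP and 20.5, 24.6 and 35.4 CPM with AAV-VEGFC (0.90 ± 0.24). Btg2, an inhibitor of cell division, measured 22.1, 31.6 and 27.9 CPM against 39.2, 45.3 and 64.8 CPM (0.87 ± 0.22). Ier2, a nuclear early-response protein, measured 9.91, 11.9 and 12.8 CPM against 17.8, 15.7 and 22.5 CPM (0.69 ± 0.17). In these 3 genes the groups were separate, and AAV-VEGFC 3 was the highest library. Cyr61, a secreted matrix-associated protein, had the widest range, with 1.9, 4.16 and 2.89 CPM against 6.25, 14.5 and 50.1 CPM (2.98 ± 0.76), and Atf3 measured 0.939, 1.66 and 1.01 CPM against 3.66, 2.06 and 8.9 CPM (2.01 ± 0.56). AAV-VEGFC 3 was the highest library in both, and without it the fold changes were 1.81 and 1.25. Sertad1, a transcriptional co-regulator, was tighter, with 7.59, 8.32 and 8.7 CPM against 13.8, 10.7 and 13.9 CPM (0.63 ± 0.15). Arc, a synaptic protein made on neuronal firing, measured 35, 44.4 and 39.1 CPM against 52.7, 46 and 51.1 CPM (0.33 ± 0.12), both far below the 297 to 328 CPM of the sham libraries.

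The 13 genes were not all at the same place relative to sham. Their mean in ligated rats without a vector was below the sham mean in 13 of 13, the AAV-GFP mean in 9 of 13, and the AAV-VEGFC mean was above it in 9 of 13. Fos stayed below sham (41.9 to 43.3 CPM) in every vector library, whereas Klf4 with AAV-VEGFC (22.7, 22.4 and 25.8 CPM) lay above the sham libraries (10.7 to 16.3 CPM). Relative to the AAV-GFP mean, the median over the 13 genes was 1.51, 1.49 and 1.95 in AAV-VEGFC 1 to 3, values that the choice of separate genes keeps above 1. Over all 49 tested genes the medians were 0.925, 1.02 and 1 in AAV-GFP 1 to 3 and 1.04, 1.24 and 1.31 in AAV-VEGFC 1 to 3. The summed list was 1854, 1997 and 1982 CPM in AAV-GFP and 1906, 2445 and 2470 CPM in AAV-VEGFC, so AAV-VEGFC 2 and 3 lay above the AAV-GFP range and AAV-VEGFC 1 inside it. Several classic members overlapped between the groups, among them Egr1 (89.8, 62.9 and 65.9 CPM against 77.2, 161 and 95.8 CPM), Egr3 (0.04 ± 0.11), Jun (-0.04 ± 0.11) and Bdnf (-0.35 ± 0.32). With 1 library left out, 14 to 24 of the 49 were separate in the higher direction, where 4.97% to 15.9% of all genes were; without AAV-GFP 1 and AAV-VEGFC 1 it was 28 (57.1%, against 26.9% of all genes). The summed markers of cortex and hippocampus neurons overlapped, with 5839 to 7655 CPM in AAV-GFP and 6192 to 6741 CPM in AAV-VEGFC.

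**Figure D3:**
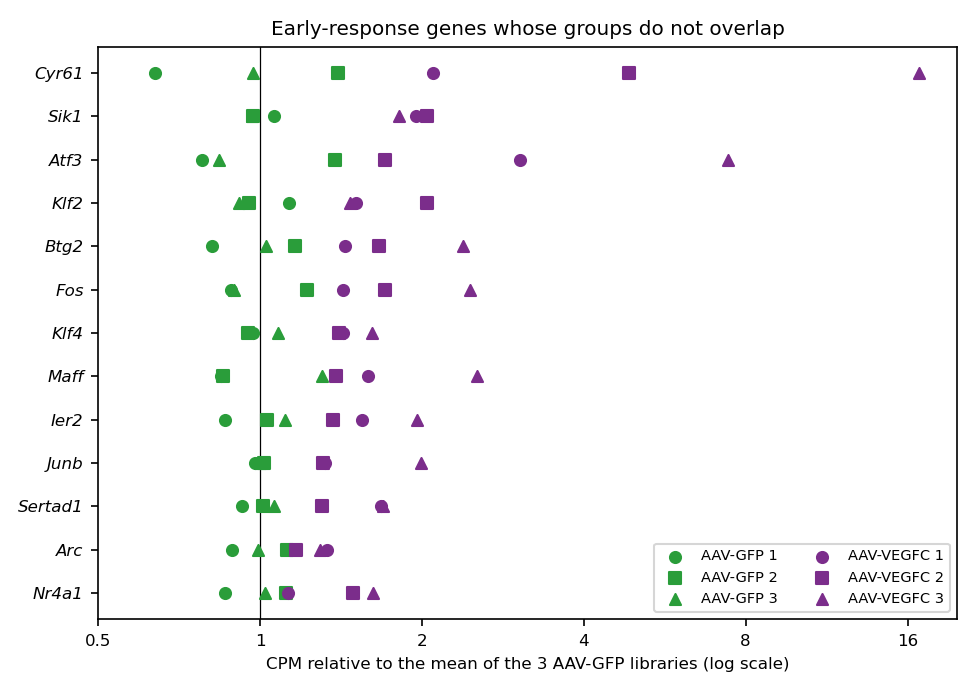
CPM of the 13 early-response genes whose groups do not overlap, in each of the 6 vector libraries, divided by the mean of the 3 AAV-GFP libraries (x axis, log scale; 1 is that mean). The AAV-VEGFC symbols lie to the right of the AAV-GFP symbols by selection; the widest value is that of Cyr61 in AAV-VEGFC 3 (16.8).

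Genes that VEGF receptors switch on in endothelium overlapped with the early-response list. Of 27 such genes 25 were tested, 0 passed, and 6 were separate in the higher direction (24%, against 3.29%) and 0 in the lower, with a median fold change of 0.04. The 6 were Apold1, Klf2, Klf4, Nr4a1, Dll4 and F3, of which Klf2, Klf4 and Nr4a1 are also in the early-response list. Klf2, a factor of endothelium under flow, measured 10.8, 9.09 and 8.74 CPM with AAV-GFP and 14.4, 19.5 and 14.1 CPM with AAV-VEGFC (0.74 ± 0.18). Dll4, the Notch ligand of sprouting tip cells, measured 1.58, 2.21 and 1.92 CPM against 2.47, 2.91 and 3.01 CPM (0.55 ± 0.23). F3, tissue factor, differed little, with 23.2, 21.3 and 23.2 CPM against 23.6, 25.8 and 24.1 CPM (0.11 ± 0.10). The other 19 overlapped, including Angpt2 (0.32 ± 0.33), the adhesion molecule Icam1 (-0.02 ± 0.27), the Notch target Hey1 (-0.24 ± 0.16) and Apln (0.02 ± 0.19). Genes that the ERK pathway induces, among them its inhibitors of the Sprouty, Spred and Dusp families and the activators Etv1, Etv4 and Etv5, had 0 of 19 tested genes separate in either direction and a median of -0.03. Spry4 measured 14.5, 13.1 and 11.8 CPM against 12.7, 16.1 and 12.4 CPM (0.06 ± 0.15). Id1, an inhibitor of basic helix-loop-helix factors and a target of BMP signalling, was in neither list and measured 15.1, 12.8 and 13.1 CPM against 26, 17 and 23.9 CPM (0.69 ± 0.18). Zmiz2, a transcriptional co-activator also in neither list, measured 11.3, 9.54 and 11.6 CPM against 14.9, 18.8 and 16.5 CPM (0.62 ± 0.15).

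The ligand, its receptors and its processing enzymes overlapped between the groups throughout. Of 23 listed genes 18 were tested, and 0 were separate in either direction, with a median of -0.05. Vegfc itself measured 3.65, 2.83 and 3.52 CPM with AAV-GFP (175, 128 and 178 reads) and 2.65, 3.29 and 3.85 CPM with AAV-VEGFC (105, 165 and 175 reads), a fold change of -0.04 ± 0.23. The counts are by rat gene symbol, and reads of the vectors were not analysed here, so this row does not check delivery of the vector. Flt4 measured 3.34, 1.81 and 3.74 CPM against 2.5, 5.09 and 4.42 CPM (0.43 ± 0.37), and Kdr 14, 13.7 and 12.6 CPM against 8.47, 13.6 and 14 CPM (-0.17 ± 0.21). Both receptors overlapped, and in both AAV-VEGFC 1 was the lowest AAV-VEGFC library. The co-receptor Nrp2 measured 29.3, 56.6 and 38.1 CPM against 30.8, 28.6 and 9.6 CPM (-0.86 ± 0.44), and the protease Adamts3, which trims VEGFC, overlapped as well (-0.36 ± 0.26). Vegfa, the main ligand of VEGFR2, gave -0.05 ± 0.16.

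Lymphatic and blood vessel genes gave few separate members. Of 23 lymphatic and angiopoietin-Tie genes 20 were tested; Gja4 and Gata2 were separate in the higher direction (10%, against 3.29%) and Mrc1 in the lower (5%, against 2.73%), with a median of -0.02. Gja4, a connexin of arterial endothelium and lymphatic valves, measured 2.15, 2.32 and 2.31 CPM against 2.88, 3.41 and 2.66 CPM (0.39 ± 0.21). Mrc1, the mannose receptor of border macrophages, measured 7.87, 6.11 and 5.82 CPM against 4.99, 5.31 and 4.79 CPM (-0.40 ± 0.18). Lyve1, a hyaluronan receptor of lymphatic endothelium and of border macrophages, was low and overlapped, with 3.13, 4.42 and 4.91 CPM against 3.28, 4.67 and 4.04 CPM (-0.06 ± 0.24). Of 27 tested genes of blood vessel endothelium and its barrier, 1 was separate in the higher direction (3.7%, near the 3.29% of all genes) and 0 in the lower. It was Slc2a1, the glucose transporter of the barrier, with 194, 197 and 212 CPM against 245, 216 and 278 CPM (0.28 ± 0.12). The tight-junction gene Cldn5 (116, 109 and 122 CPM against 158, 110 and 113 CPM) and the adhesion gene Pecam1 (20.9, 17.1 and 19.7 CPM against 20, 18.4 and 21 CPM) overlapped. The summed endothelial markers were 1649 to 1759 CPM with AAV-GFP and 1686 to 1941 CPM with AAV-VEGFC.

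Genes of pericytes and smooth muscle showed no common direction, but 4 pericyte markers were separate. Of 17 tested genes 9 had a fold change above 0 and 8 below, with a median of 0.01, and 4 were separate in the higher direction (23.5%, against 3.29%) and 0 in the lower. They were Rgs5, Abcc9, Kcnj8 and Pdgfrb, all markers of pericytes. Other pericyte markers of the list overlapped, among them Vtn, Anpep, Higd1b, Atp13a5 and Notch3. Rgs5, a regulator of G protein signalling, measured 17.5, 21.9 and 21.3 CPM against 26.3, 26.2 and 26.1 CPM (0.36 ± 0.12). Abcc9, a subunit of the potassium channel formed with Kcnj8, measured 13.4, 16.2 and 16.9 CPM against 18.8, 19.4 and 21.4 CPM (0.35 ± 0.13), and Kcnj8 2.61, 4.03 and 4.33 CPM against 5.2, 4.67 and 5.14 CPM (0.44 ± 0.23). Pdgfrb barely differed (0.05 ± 0.09). Cspg4, the pericyte proteoglycan NG2 that is also made by oligodendrocyte precursors, overlapped, with 57.1, 34.9 and 37 CPM against 39.2, 42.4 and 43 CPM (-0.06 ± 0.20). The contractile genes of smooth muscle overlapped, as in Acta2 (28.1, 15.9 and 14.8 CPM against 17.4, 17.3 and 10.6 CPM) and Myh11 (-0.11 ± 0.21). The summed list was 267.6 to 338.8 CPM with AAV-GFP and 274.4 to 320.5 CPM with AAV-VEGFC.

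MHC class II genes leaned the other way. Of 14 listed genes 10 passed the filter on low counts and 0 passed the edgeR test; 5 were separate in the lower direction (50%, against 2.73% of all genes) and 0 in the higher, with a median fold change of -2.64. Without AAV-GFP 1 the median was -1.06 and 6 of 10 were separate, where 10.9% of all genes were. At these low levels the filter kept several members mainly through the AAV-GFP libraries, so the count is not over all members. Rat RT1 genes are near-identical copies in part, and how the authors' counting split reads between them is not given, so single RT1 values are uncertain.

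The promoters of 4 of the 5 separate genes share the Y box, the inverted CCAAT element of class II promoters that binds NF-Y, and are shown for that reason. The last 100 bases before the start are given as above, from RefSeq on GRCr8, with the Y box CTGATTGG in capitals and, in RT1-Ba, also TGACGTCA.
RT1-Ba, chr20:4576957-4577056, plus strand: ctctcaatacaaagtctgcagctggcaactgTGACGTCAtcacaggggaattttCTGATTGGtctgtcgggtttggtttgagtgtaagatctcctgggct
RT1-Bb, chr20:4604119-4604218, minus strand: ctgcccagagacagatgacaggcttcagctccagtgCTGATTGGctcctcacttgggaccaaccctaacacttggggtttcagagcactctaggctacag
RT1-Da, chr20:4515315-4515414, plus strand: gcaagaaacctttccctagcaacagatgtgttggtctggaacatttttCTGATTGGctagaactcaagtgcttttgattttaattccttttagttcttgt
RT1-Db1, chr20:4560163-4560262, minus strand: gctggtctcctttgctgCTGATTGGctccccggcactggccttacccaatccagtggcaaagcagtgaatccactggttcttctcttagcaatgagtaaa

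All 4 lie on chromosome 20, where the rat class II genes cluster. In the 250 bases upstream and on either strand, CTGATTGG was found in 4 of the 5 separate genes (80%), in 4 of the 8 tested genes with a promoter entry (50%) and in 3.19% of all promoters. Cd74, the fifth, holds the shorter CCAAT, which is part of the Y box and occurs in 34% of all promoters.

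RT1-Ba and RT1-Bb, the alpha and beta chains of one class II molecule, were separate. With 1 library left out, the fold change of RT1-Ba ranged from -3.223 to -2.348 and that of RT1-Bb from -4.083 to -2.775. RT1-Ba measured 6.59, 3.69 and 3.76 CPM with AAV-GFP and 0.429, 0.559 and 1.19 CPM with AAV-VEGFC (-2.69 ± 0.46), with adjusted p = 1 by edgeR and 2.33e-05 by DESeq2. RT1-Bb measured 8.01, 4.65 and 4.25 CPM against 0.227, 0.419 and 1.23 CPM (-3.16 ± 0.61), with adjusted p = 1 by edgeR and 0.000155 by DESeq2. In both, the sham libraries (0.908 to 1.66 CPM for RT1-Ba, 0.571 to 1.05 CPM for RT1-Bb) and the ligated ones lay below AAV-GFP, so it was again AAV-GFP that stood apart from the other 3 groups. RT1-Da, of the second class II molecule, measured 73, 8.69 and 8.74 CPM against 3.4, 3.61 and 4.07 CPM, and its sham libraries held 6.14 to 10.7 CPM. Cd74, the invariant chain that escorts class II molecules, measured 235, 25.7 and 22.4 CPM against 14.4, 10.4 and 14.2 CPM, with 19 to 36.1 CPM in sham. In RT1-Da and Cd74 the size of the difference rests on AAV-GFP 1, and AAV-GFP 2 and 3 lay within the sham range. The ligated libraries without a vector held 1.54, 2.44 and 9.76 CPM of RT1-Da and 4.64, 7.65 and 30.7 CPM of Cd74. In both genes the AAV-VEGFC values lay within the range of those ligated libraries. The class II regulator Ciita (1.52, 0.708 and 0.475 CPM against 0.479, 0.0998 and 0.11 CPM) and the peptide exchange subunit RT1-DMb (5.55, 2.1 and 0.831 CPM against 0.277, 1.34 and 1.54 CPM) overlapped.

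Other immune genes showed smaller differences. Of 26 tested genes of class I presentation 3 were separate in the lower direction (11.5%, against 2.73%) and 0 in the higher, with a median of -0.11. RT1-CE14 measured 2.23, 2.88 and 2.18 CPM against 1.34, 1.02 and 1.03 CPM (-1.11 ± 0.26), RT1-CE5 12.8, 8.43 and 8.09 CPM against 6.28, 5.29 and 5.49 CPM (-0.79 ± 0.21), and the third was RT1-T24-4. The light chain B2m overlapped (490, 365 and 371 CPM against 507, 273 and 315 CPM). Of 35 tested interferon-stimulated genes 31 had a fold change below 0, and the median of -0.30 became 0.00 without AAV-GFP 1. Only Bst2 was separate, in the lower direction (2.86%, near the 2.73% of all genes). Uba7, the enzyme that activates the ubiquitin-like protein ISG15, was separate (2.48, 2.12 and 2.02 CPM against 1.24, 1.06 and 1.19 CPM, -0.94 ± 0.24). Markers of resting microglia overlapped in sum, with 699 to 1048 CPM in AAV-GFP and 646.8 to 1072 CPM in AAV-VEGFC, and the microglial gene Aif1 measured 25.4, 15.8 and 16.8 CPM against 41.1, 13.9 and 14.4 CPM. Of 21 tested genes of activated microglia and lysosomes 9 had a fold change above 0 and 12 below (median 0.00), and 1 was separate in the lower direction (4.76%, against 2.73%) and 0 in the higher. It was Lyz2, the lysozyme of macrophages and microglia, with 71, 71.9 and 67.3 CPM against 63.7, 44.6 and 47.5 CPM (-0.44 ± 0.14). Its adjusted p was 1 by edgeR, 0.999 by DESeq2 and 0.109 by limma voom. The lysosomal macrophage marker Cd68 measured 4.21, 2.77 and 1.7 CPM against 1.36, 1.04 and 1.78 CPM (-1.06 ± 0.39), and Cybb, a subunit of the phagocyte oxidase, 1.77, 2.74 and 2.53 CPM against 1.08, 1.98 and 1.14 CPM (-0.75 ± 0.33). Both overlapped. Lyz2, Cd68 and Cybb were named as the 3 members with the smallest p, so they do not stand for the list. Its 2 members with the highest level, Apoe and Fth1, had fold changes above 0 (0.10 and 0.19). In both, AAV-VEGFC 1 was the highest library. The summed list was 7219 to 8129 CPM in AAV-GFP and 6315 to 11570 CPM in AAV-VEGFC. Markers of T, B and natural killer cells summed to 17.64 to 24.95 CPM against 13.59 to 19.53 CPM, with 3 of 21 at 0 in all 6 libraries. The part of microglial, macrophage or lymphocyte content in the class II result was not tested.

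**Figure D4:**
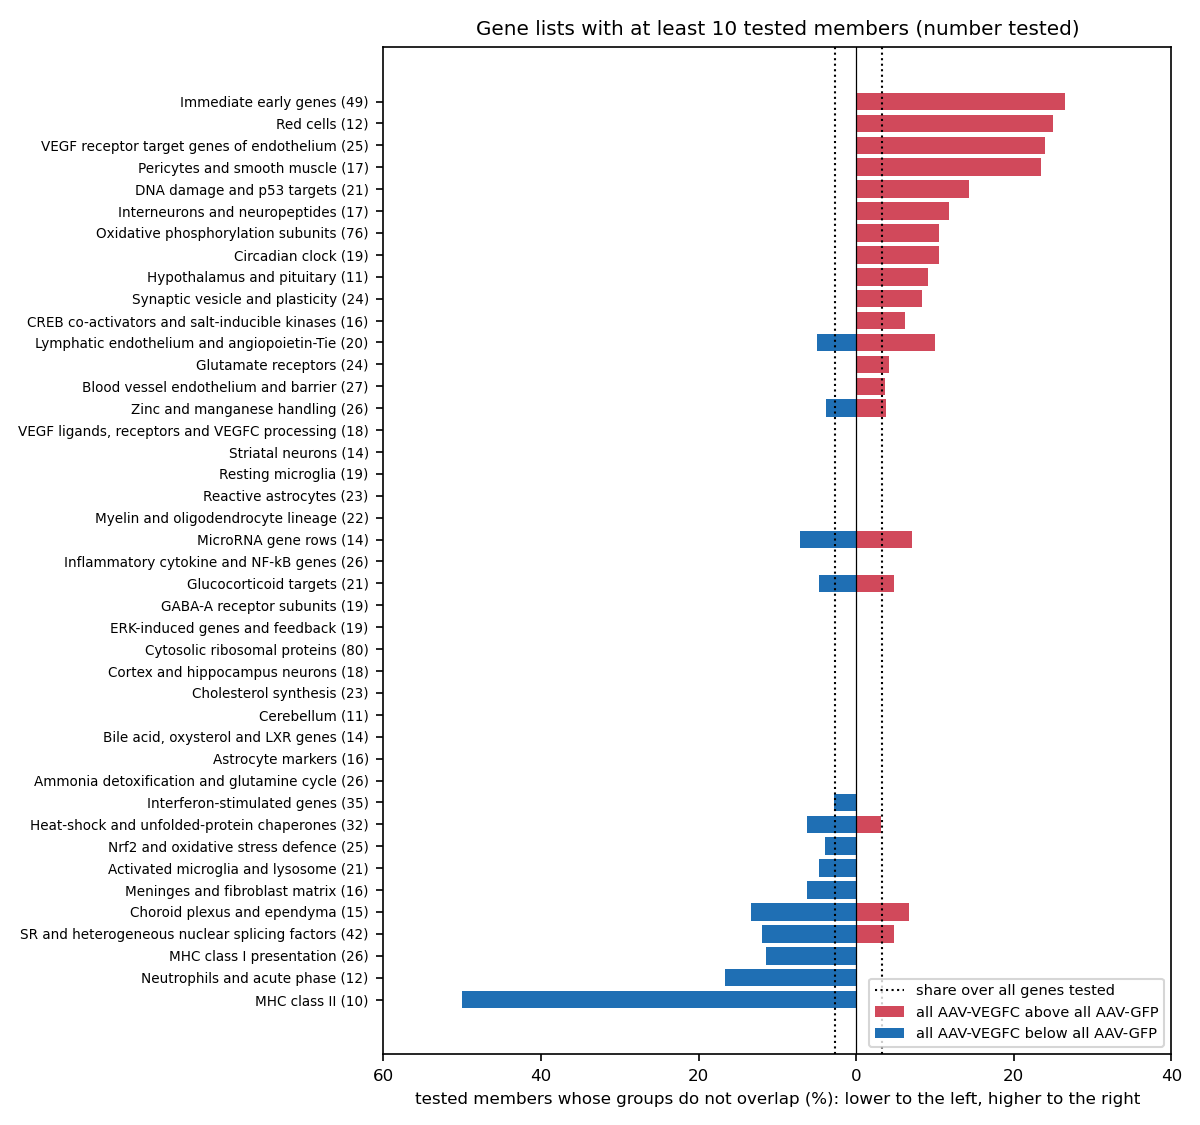
Share of each gene list's tested members (number in brackets) with all 3 AAV-VEGFC values above (right) or below (left) all 3 AAV-GFP values, in percent; dotted lines mark the shares over all genes tested, 3.29% and 2.73%. Early-response genes reach 26.5% to the right and MHC class II genes 50% to the left, whereas the VEGF ligand and receptor list and the ammonia list have 0 on both sides.

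Of 26 tested genes of ammonia detoxification and the glutamine cycle 0 were separate in either direction, and the median was 0.00. Glul, the glutamine synthetase that binds ammonia in astrocytes, measured 2428, 2237 and 2311 CPM against 2669, 2186 and 2123 CPM (-0.01 ± 0.12), and the astrocyte glutamate transporter Slc1a2 gave 0.07 ± 0.13. Genes of bile acid and oxysterol handling (14 tested), cholesterol synthesis (23), GABA-A receptors (19) and inflammatory cytokines (26) also had 0 separate members. Of 16 tested astrocyte markers 8 had a fold change above 0 and 8 below, with a median of -0.02 and 0 separate. Gfap, the intermediate filament of reactive astrocytes, measured 954, 833 and 678 CPM against 898, 504 and 486 CPM (-0.40 ± 0.26), and the water channel Aqp4 919, 670 and 593 CPM against 716, 613 and 527 CPM (-0.24 ± 0.19). Both overlapped. The summed astrocyte list overlapped too, with 8204 to 9798 CPM in AAV-GFP and 7171 to 13100 CPM in AAV-VEGFC, where AAV-VEGFC 1 was the highest.

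The median shift of some broad lists depended on 1 or 2 libraries. Of 80 tested cytosolic ribosomal protein genes 79 had a fold change above 0, with a median of 0.32 and 0 separate, and without AAV-VEGFC 1 the median was -0.13 and 77 of 80 lay below 0. Subunits of oxidative phosphorylation gave 8 of 76 separate in the higher direction (10.5%, against 3.29% of all genes) and a median of 0.17, which became -0.06 without AAV-VEGFC 1. Ndufa12 measured 16, 14.9 and 14.3 CPM against 31.2, 21 and 17.5 CPM, and there AAV-VEGFC 1 was the highest. By definition the 8 separate genes were higher in every AAV-VEGFC library. Atp5a1, by a small amount, measured 930.5, 925 and 936.3 CPM against 977, 964.9 and 974.7 CPM. Striatal neuron genes had a fold change above 0 in 14 of 14 with 0 separate. Their summed level was 2529, 891.9 and 1524 CPM in AAV-GFP and 1575, 1650 and 3142 CPM in AAV-VEGFC, and without AAV-VEGFC 3 their median was -0.06. Meningeal and fibroblast genes had a fold change below 0 in 16 of 16, with Bgn alone separate (6.25%, against 2.73% of all genes). Their median was -0.26, and 0.01 without AAV-GFP 1 and AAV-VEGFC 1. The pituitary hormones Gh1 and Prl were seen at 27.8 and 25.7 CPM in AAV-VEGFC 3 and below 1 CPM in the other vector libraries, and Avp, the vasopressin gene, at 32.8 CPM in AAV-GFP 1. The regional content of the tissue pieces was not tested as a part of the results.

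**Figure D5:**
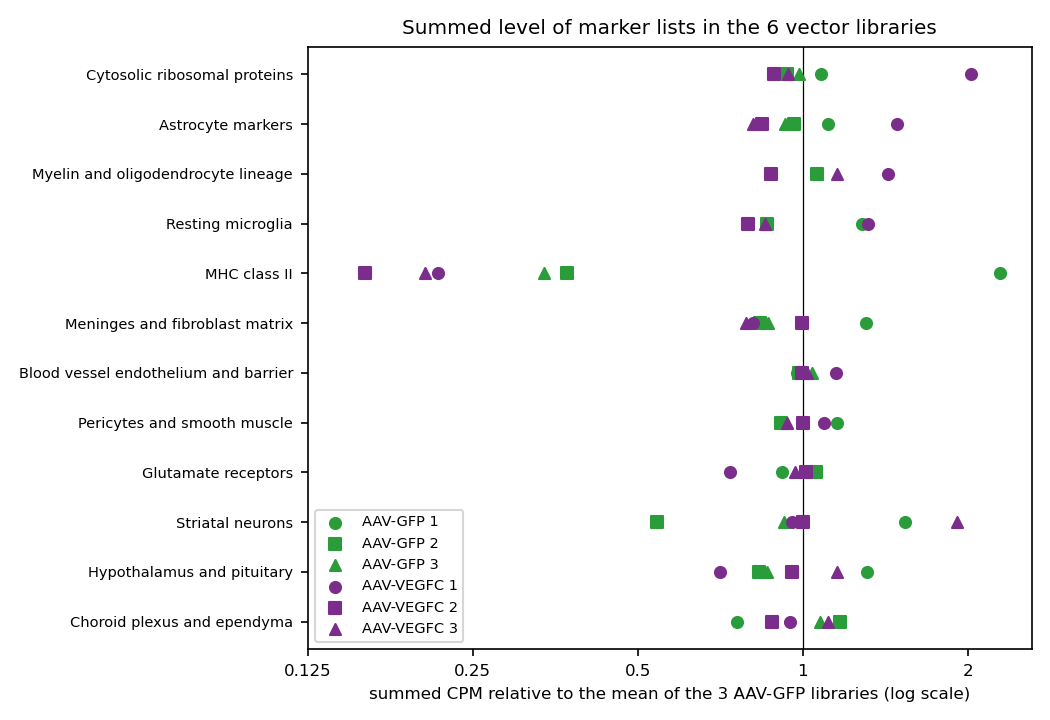
Summed CPM of 12 marker lists in the 6 vector libraries, divided by the mean of the 3 AAV-GFP libraries (x axis, log scale; symbols give the replicate, colours the group). AAV-VEGFC 1 stands alone to the right in ribosomal proteins and astrocyte markers, and AAV-GFP 1 in MHC class II, while the striatal sums spread within both groups.

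With AAV-GFP 1 and AAV-VEGFC 1 left out, the edgeR fit of 2 against 2 libraries called 23 genes, 10 higher and 13 lower, Slc39a12 (-4.24 ± 0.24, adjusted p = 0.0368) and Apold1 (0.92 ± 0.06, adjusted p = 0.0368) among them. Those were the 2 of the 23 whose groups were also separate over all 6 libraries. In 18 of the 23 genes the omitted AAV-GFP 1 lay nearer to AAV-VEGFC 2 and 3 than to AAV-GFP 2 and 3, in 17 the omitted AAV-VEGFC 1 lay nearer to AAV-GFP 2 and 3, and in 14 both did. Nhlh1, a neuronal basic helix-loop-helix factor, measured 0.521, 4.84 and 4.75 CPM with AAV-GFP and 5.95, 0.399 and 0.373 CPM with AAV-VEGFC. The calls in genes with such a split thus hold for the 4 libraries kept and not for the 6. Dusp1, a phosphatase of MAP kinases and a member of the early-response list, was called as well and measured 61.3, 80.1 and 75 CPM against 72.3, 135 and 148 CPM, with AAV-VEGFC 1 inside the AAV-GFP range.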

How the data were processed

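RNA from middle brain was extracted with Trizol and made into libraries with a TruSeq RNA kit from 200 ng, per the labels' protocols. The submitters' processing notes name HISAT2, featureCounts, Trimmomatic 0.36, FastQC and the build rn6. Settings, annotation and strandedness were not given in the sources used here. Without them, overlapping and antisense genes cannot be told apart. The deposited values are the authors' raw counts of reads for each gene symbol (17337 rows; 26 are named as dates and were left unnamed). Columns left unused numbered 0.

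From the deposited counts, edgeR 4.0.16 under R 4.3.3 fitted the 6 vector libraries alone (filterByExpr, 12543 genes, 99.988% of reads; TMM factors; quasi-likelihood test; Benjamini-Hochberg; adjusted p under 0.05). The F statistic and the fold change gave the SE. CPM values were computed with TMM factors over all 12 libraries. The scripts were tested on simulated data. Libraries of a group differed by more than sampling noise (chi-square per degree of freedom 11.88 to 226.5). A group at 0 was given a floor of 3 counts over its libraries, for counting error only.

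The members, the 44 gene lists and the libraries doubted were chosen with earlier results of these data known. The rule took the 12 genes of each direction with the smallest p and a mean of at least 1 CPM, 3 members per list with the smallest p and 2 with the highest level, and a fixed set led by Vegfc. The text names the first of these in full and part of the others, and some further list members are examples chosen after their values were seen. Promoters were the 250 bases upstream in RefSeq's GRCr8 table. Alternatives were DESeq2 1.42.0, limma 3.58.1 voom, DESeq2 size factors, other filters, all 12 libraries, a replicate block, libraries left out, and an adjusted p under 0.1. Figures were drawn with matplotlib 3.10.9.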

Additional observations from a re-analysis of the deposited data

How the results depend on the processing

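The number of genes called was 0 with DESeq2 size factors in the edgeR fit (204 with an unadjusted p under 0.05), with no filter on low counts (224), with at least 1 CPM in 3 libraries (165) and at an adjusted p under 0.1 (203). It was 6 by DESeq2's own test, 3 by limma voom, 1 in the fit of all 12 libraries, 23 without AAV-GFP 1 and AAV-VEGFC 1, and 0 to 1 with each library left out in turn; the 1 call, Slc39a12, came without AAV-VEGFC 1. The replicate block gave 0 calls (220 with an unadjusted p under 0.05). Replicate numbers were not treated as pairs: the deviations of same-numbered libraries correlated at -0.0357, 0.0265 and 0.0503, and not every library correlated best with its own number. Of 3338 fold changes of 240 genes recomputed under the alternatives, 3111 kept their direction and side of the threshold, 34 kept their direction and passed it, and 193 values of 76 genes changed direction with no call on either side, Vegfc among them. Slc39a12, Apold1, Sik1, RT1-Ba, RT1-Bb, Fos, Klf4 and Btg2 kept their direction under all 14 alternatives. The cause of the differing counts was not tested. Genes under about 1 CPM, such as Ciita, rest on few reads.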

Other observations

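Of 42 tested splicing factors 5 were separate in the lower direction (11.9%, against 2.73% of all genes) and 2 in the higher (4.76%, against 3.29%). Srsf1 measured 161, 187 and 183 CPM with AAV-GFP and 150, 153 and 145 CPM with AAV-VEGFC (-0.25 ± 0.10), and Srsf5 194, 210 and 208 CPM against 246, 243 and 263 CPM (0.29 ± 0.10), so these related factors differed in opposite directions. Of 19 tested clock genes Ciart and Bhlhe40, both repressors of the clock, were separate in the higher direction (10.5%, against 3.29%). Ciart measured 13.6, 10.9 and 12.7 CPM against 18.7, 15 and 25.6 CPM (0.66 ± 0.21). Of 12 tested red cell genes 3 were separate in the higher direction (25%, against 3.29% of all genes) and 0 in the lower. The amounts were small: Hba1, an alpha globin, measured 362, 402 and 381 CPM against 426, 426 and 426 CPM (0.15 ± 0.09). Of 12 tested genes of neutrophils and the acute phase 2 were separate in the lower direction (16.7%, against 2.73%) and 0 in the higher, at low levels. Their fold change was above 0 in 6 and below 0 in 6, with a median of 0.00. The summed list overlapped, with 33.59 to 41.36 CPM in AAV-GFP and 31.77 to 46.01 CPM in AAV-VEGFC. The neutrophil collagenase Mmp8 measured 0.918, 0.73 and 0.653 CPM against 0.58, 0.279 and 0.373 CPM (-0.91 ± 0.41), and the aspartic protease Napsa 1.02, 1.64 and 1.15 CPM against 0.908, 0.599 and 0.681 CPM (-0.81 ± 0.34). Both are at 0 in all sham libraries. Of 15 tested genes of choroid plexus and ependyma 2 were separate in the lower direction (13.3%, against 2.73%) and 1 in the higher (6.67%, against 3.29%). Their fold change was above 0 in 6 and below 0 in 9. The bicarbonate transporter Slc4a5 measured 0.48, 1.73 and 1.09 CPM against 0.303, 0.479 and 0.417 CPM (-1.45 ± 0.52), Kl, the Klotho gene, 1.15, 2.94 and 2.25 CPM against 0.429, 0.798 and 1.34 CPM (-1.30 ± 0.51), and the water channel Aqp1 2.52, 3.41 and 2.95 CPM against 1.59, 2.51 and 1.45 CPM (-0.68 ± 0.29). Kl overlapped, and the summed choroid list did too, with 190.6 to 293.3 CPM against 220.9 to 279.3 CPM. These genes already spread widely in sham, with 0, 7.99 and 0.478 CPM of Slc4a5, 0.6645, 13.9 and 0.932 CPM of Kl and 0.508, 4.99 and 1.05 CPM of Aqp1. Of 17 tested interneuron and neuropeptide genes 7 had a fold change above 0 and 10 below, with a median of -0.04. Vip and Cck were separate in the higher direction (11.8%, against 3.29%) and 0 in the lower. Vip, the neuropeptide of a class of interneurons, measured 39.6, 33.5 and 41.3 CPM against 65.3, 50.4 and 44.8 CPM (0.48 ± 0.16). The summed list overlapped, with 1216 to 1614 CPM in AAV-GFP and 1165 to 1535 CPM in AAV-VEGFC.

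Among the genes with the smallest p in the lower direction, Scd1, a fatty acid desaturase, measured 40.4, 52.9 and 45.1 CPM with AAV-GFP and 36, 34.3 and 29.4 CPM with AAV-VEGFC (-0.48 ± 0.13). Pcdha6, a clustered protocadherin whose last exons are shared with its neighbours and whose reads may be split between them, measured 17, 20.4 and 21.4 CPM against 13.3, 12.5 and 13.1 CPM (-0.60 ± 0.12). Mum1l1 measured 6.34, 5.64 and 5.78 CPM against 3.3, 4.21 and 3.93 CPM (-0.64 ± 0.18). Pomp, a chaperone of proteasome assembly called by DESeq2 (adjusted p = 0.0138), measured 71.1, 67.5 and 50.2 CPM against 29.7, 9.98 and 21.5 CPM, but its sham libraries already spread over 50.6, 7.44 and 25.9 CPM. Such spreads were found in other genes: in 67 of 11506 genes with a mean of at least 1 CPM (0.582%) the highest library of a vector group was at least 10 times the lowest. Calcoco1 measured 6.86, 1.08 and 4.81 CPM against 0.782, 0.758 and 1.17 CPM (-2.24 ± 0.63), and its sham libraries spread from 0.813 to 6.82 CPM. Ndufa1, a subunit of complex I, measured 0.73, 0.664 and 0.336 CPM against 6.68, 20.9 and 0.396 CPM, and 14.6, 17.9 and 0.0717 CPM in sham. Bco1, which cleaves carotenoids and was picked out after its values were seen, had 37 reads over the AAV-GFP libraries and 0 over the AAV-VEGFC libraries. Against the floor of 3 counts this was at least 11.6-fold lower (adjusted p = 1 by edgeR). The gene passed the filter through the AAV-GFP libraries alone, so this fold is a description only. Levels were near 0 throughout, with 0.2295, 0.3097 and 0.2374 CPM in AAV-GFP and 0, 0.1427 and 0.0956 CPM in sham.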
